A study of Mus musculus with 4 samples.

Results

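Six3, Pbx3, Pou3f4, Pcp4l1 and C1qtnf4 are 5 of the 19465 genes listed for 4 mouse brain sections, and were chosen by their deposited spatial scores, which were higher in the 2 rNLS8 sections than in the 2 control sections. The members were found by symbol, and each matched 1 gene in the files. The score that chose them is Moran's I, which is near 0 when neighbouring spots are unrelated and rises towards 1 when neighbours hold like amounts. The question was how far that higher score goes with the gene's pattern, with its level, with the depth of counting or with the regions that each section holds.

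The sections came from a capture array (Visium) on which each RNA molecule counted, a UMI, is assigned to a spot of tissue that can hold several cells or parts of cells. There were 2 control and 2 rNLS8 samples, 1 section each, cut at 5 µm from fixed, paraffin-embedded brain at 11 weeks of age and 3 weeks after doxycycline was withdrawn, a treatment the labels list for controls too. In rNLS8 mice a neurofilament heavy chain promoter drives the doxycycline-controlled activator in neurons, so that withdrawal turns on human TDP-43 without a working nuclear import signal. The labels name the other group only as control and give no alleles for it. Replicate 1 of each group is labelled female and replicate 2 male, but the 4 Y-linked genes counted gave 0 CPM (counts scaled to a common total) in control replicate 1, 107 in control replicate 2, 137 in rNLS8 replicate 1 and 139 in rNLS8 replicate 2. The library labelled rNLS8 female thus goes against its label, separate animals are not stated for either group, and p-values below measure only the spread between these sections, which may in part be technical.

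The striatum receives input from the cortex and is built mostly of inhibitory projection neurons that carry dopamine receptors. Homeobox and POU factors set up this lineage in the embryonic ganglionic eminence, and some stay on in the adult. Six3 is a homeobox factor needed for forebrain and eye formation and for striatal projection neurons of the indirect pathway. Pbx3 is a TALE-class homeobox protein that binds DNA together with other homeobox factors, and Pou3f4, also called Brn4, is a POU-domain factor known from striatal precursors and the inner ear. Pcp4l1 is a small protein with an IQ motif, related to the calmodulin regulator Pcp4. C1qtnf4 is a secreted protein of the C1q and TNF related family, made widely in brain.

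In GRCm38.p6 (mm10), Six3 lies at chr17:85613608-85626191, Pbx3 at chr2:34171457-34372045, Pou3f4 at chrX:110814379-110819108, Pcp4l1 at chr1:171173264-171196268 and C1qtnf4 at chr2:90882788-90890526, all protein-coding. RefSeq promoter windows of that build were at hand for 3 of the 5 members. The 250 bases before the start site are shown because Six3, Pou3f4 and Pcp4l1 share a striatal over cortical level in every section, with each match to CCAAT on either strand in capitals. The windows are chr17:85620584-85620833 on the plus strand for Six3, chrX:110814129-110814378 on the plus strand for Pou3f4 and chr1:171196269-171196518 on the minus strand for Pcp4l1. The windows of Pou3f4 and Pcp4l1 end where the gene begins, while that of Six3 lies inside the annotated gene, before an internal transcript start.
Six3: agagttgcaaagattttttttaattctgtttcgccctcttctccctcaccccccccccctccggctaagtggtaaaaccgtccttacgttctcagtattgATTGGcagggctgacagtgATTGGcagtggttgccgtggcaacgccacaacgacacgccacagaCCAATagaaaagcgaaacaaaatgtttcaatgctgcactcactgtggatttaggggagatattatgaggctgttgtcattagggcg
Pou3f4: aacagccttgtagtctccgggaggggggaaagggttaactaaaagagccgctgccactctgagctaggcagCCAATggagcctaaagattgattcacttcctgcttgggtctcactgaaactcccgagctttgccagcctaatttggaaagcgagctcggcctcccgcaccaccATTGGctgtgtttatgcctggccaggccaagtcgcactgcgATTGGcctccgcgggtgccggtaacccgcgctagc
Pcp4l1: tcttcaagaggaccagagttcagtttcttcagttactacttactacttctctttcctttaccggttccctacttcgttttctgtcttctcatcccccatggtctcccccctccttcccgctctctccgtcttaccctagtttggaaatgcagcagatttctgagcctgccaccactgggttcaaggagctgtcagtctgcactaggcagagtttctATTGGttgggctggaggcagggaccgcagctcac

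The Six3 window holds CCAAT 3 times, starting 150, 131 and 86 bases before the start, and the Pou3f4 window 3 times, at 179, 76 and 35 bases. The Pcp4l1 window holds it once, at 34 bases. Of all 32851 windows of this length, 33.8% hold 1 or more matches and 2.79% hold 3 or more. None of the 3 windows held the TATA-box letters TATAAA on either strand (12.4% of all windows do), the homeobox core TAATTA (4.84% do), the POU octamer ATGCAAAT (1.60% do), the PBX sequence TGATTGAT (0.670% do) or the GC-box core GGGCGG (32.7% do). These are matches of letters only.

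The sections held 17627577 to 28056089 UMI, and 2655 to 3810 spots with at least 500 UMI were kept. The median spot held 5364 and 6098 UMI in the control sections and 9776 and 6316 in the rNLS8 sections. Regions were rebuilt by clustering the kept spots without the 5 genes and naming clusters from marker genes. Striatum made up 19.0% and 19.99% of kept spots in control and 23.8% and 16.9% in rNLS8, cortex 20.9% and 19.1% against 25.6% and 35.4%, and a low-count rim 28.6% and 32.2% against 14.1% and 16.9%. rNLS8 replicate 2 stood apart: it held no spot called basal forebrain and 3 called claustrum, where the other sections held 161 to 346 and 125 to 233. Different clusters also hold the striatum in the 2 groups (6, 11 and 23 in most control spots, 12 and 18 in rNLS8 replicate 1, 24 and 26 in rNLS8 replicate 2), as they do the cortex.

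**Figure D1:**
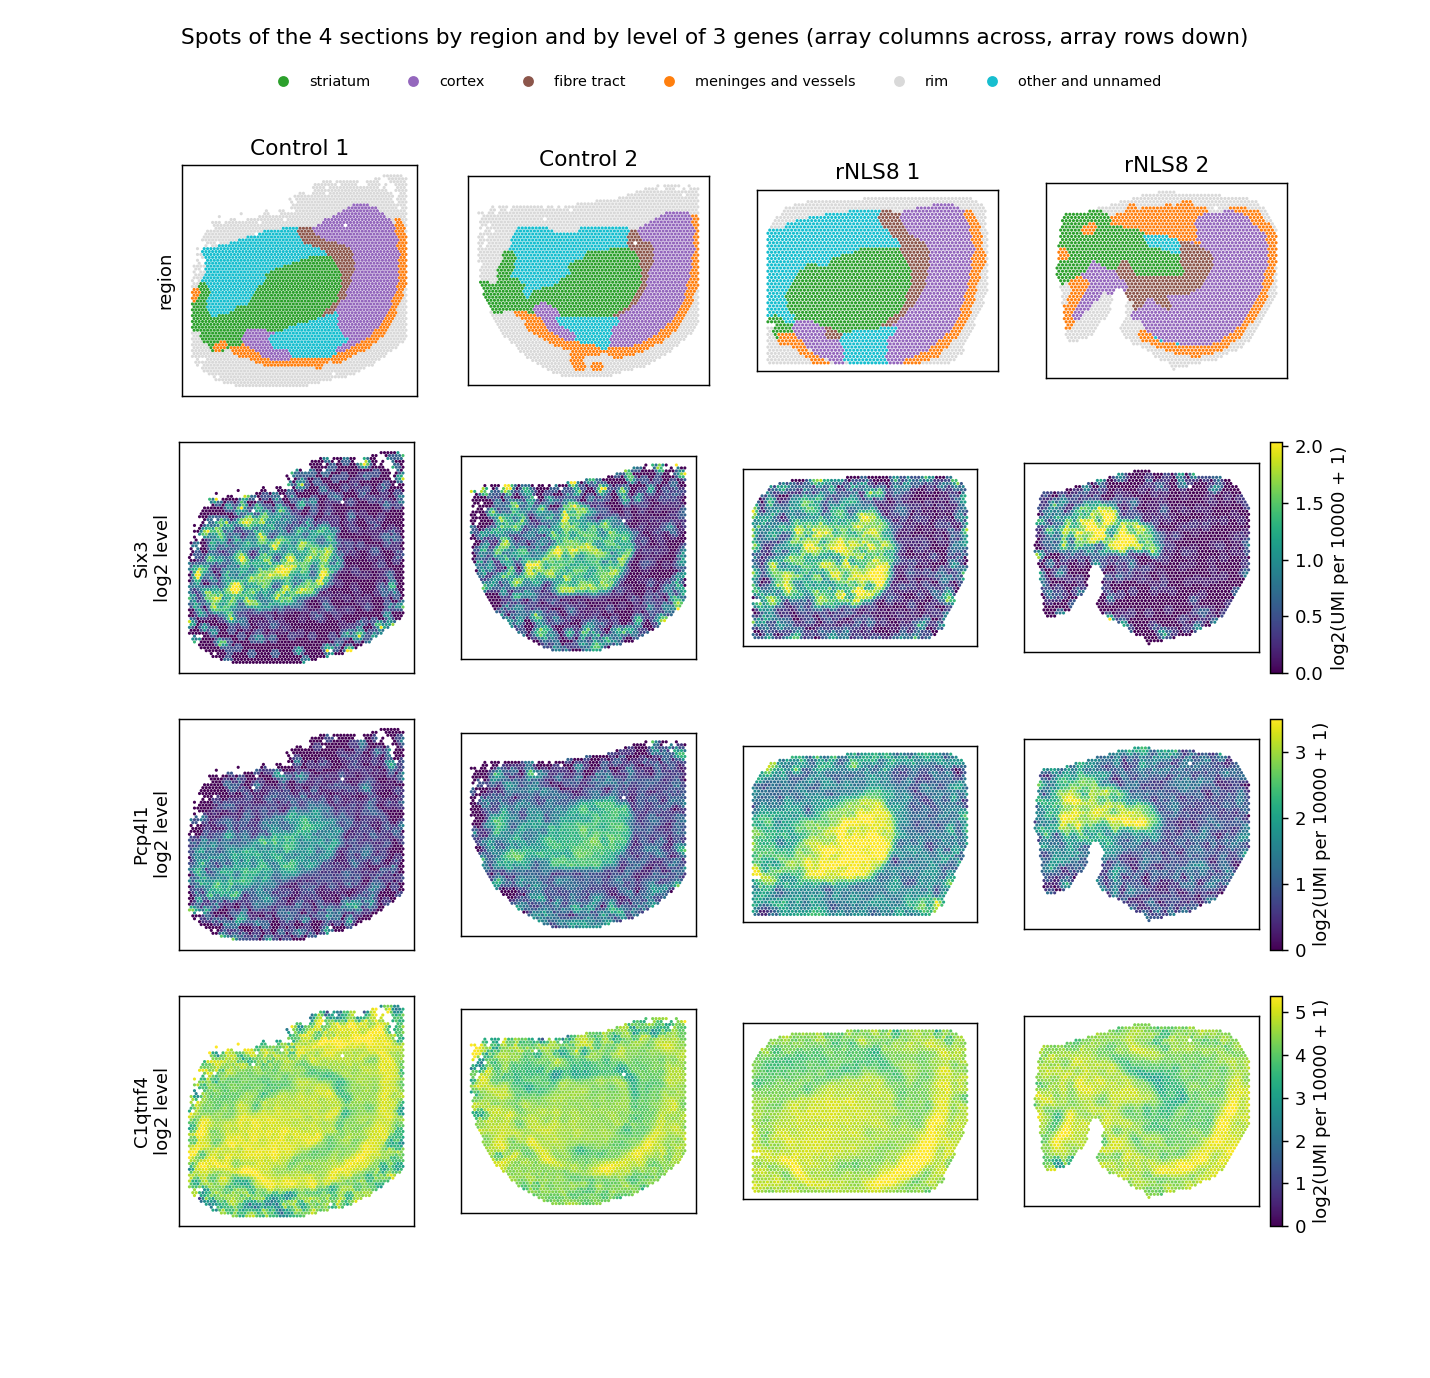
Spots of the 4 sections by array position. The top row colours spots by region, and the lower rows show the level of Six3, Pcp4l1 and C1qtnf4 as log2(UMI per 10000 + 1) averaged with neighbouring spots. Six3 and Pcp4l1 are bright in the striatum, and C1qtnf4 is bright in striatum and cortex and darker along the fibre tract.

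The deposited score was higher in both rNLS8 sections than in both control sections for all 5 genes, which is what they were chosen for. Six3 scored 0.172 and 0.166 in control replicates 1 and 2 and 0.316 and 0.366 in rNLS8 replicates 1 and 2. Pbx3 scored 0.1004 and 0.104 against 0.177 and 0.169, and Pou3f4 0.0908 and 0.0859 against 0.154 and 0.183. For each of the 3 transcription factors the control scores lay close together, and the groups did not overlap.

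Pcp4l1 scored 0.184 and 0.239 in control and 0.414 and 0.375 in rNLS8. C1qtnf4 scored 0.145 and 0.128 in control and 0.394 and 0.335 in rNLS8. Among the 6321 genes found in at least 10% of spots of every section, C1qtnf4 had the largest rise of the group mean, at 0.228, and Pcp4l1 ranked 4, Six3 8, Pou3f4 46 and Pbx3 50. Of these genes, 5.33% had both rNLS8 scores above both control scores and 46.9% had both below, and the median difference over genes, rNLS8 minus control, was -0.0119. As deposited, some listed genes of the striatum stood with the members. Both rNLS8 scores were above both control scores for 7 of 17 scored striatal signalling genes and 4 of 6 scored lineage genes. The 4 include Nr4a1, whose log2 difference of striatum over cortex was only 0.085 in control and 0.036 in rNLS8. For both lists this did not hold once depth was matched, as given below.

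Scores recomputed from the counts of the kept spots followed the deposited ones over the 6321 genes (r = 0.985 to 0.991 across genes, which are not independent replicates). Without the rim, C1qtnf4 scored 0.361 and 0.402 in control and 0.542 and 0.429 in rNLS8. Its groups still did not overlap, but the difference went from 0.245 with the rim, where 8.01% of the scored genes had both rNLS8 scores above, to 0.104 without it. Six3 scored 0.293 and 0.309 against 0.409 and 0.445 without the rim, and Pcp4l1 0.276 and 0.369 against 0.531 and 0.461. All 5 genes kept both rNLS8 scores above both control scores, as did 11.1% of the scored genes.

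**Figure D2:**
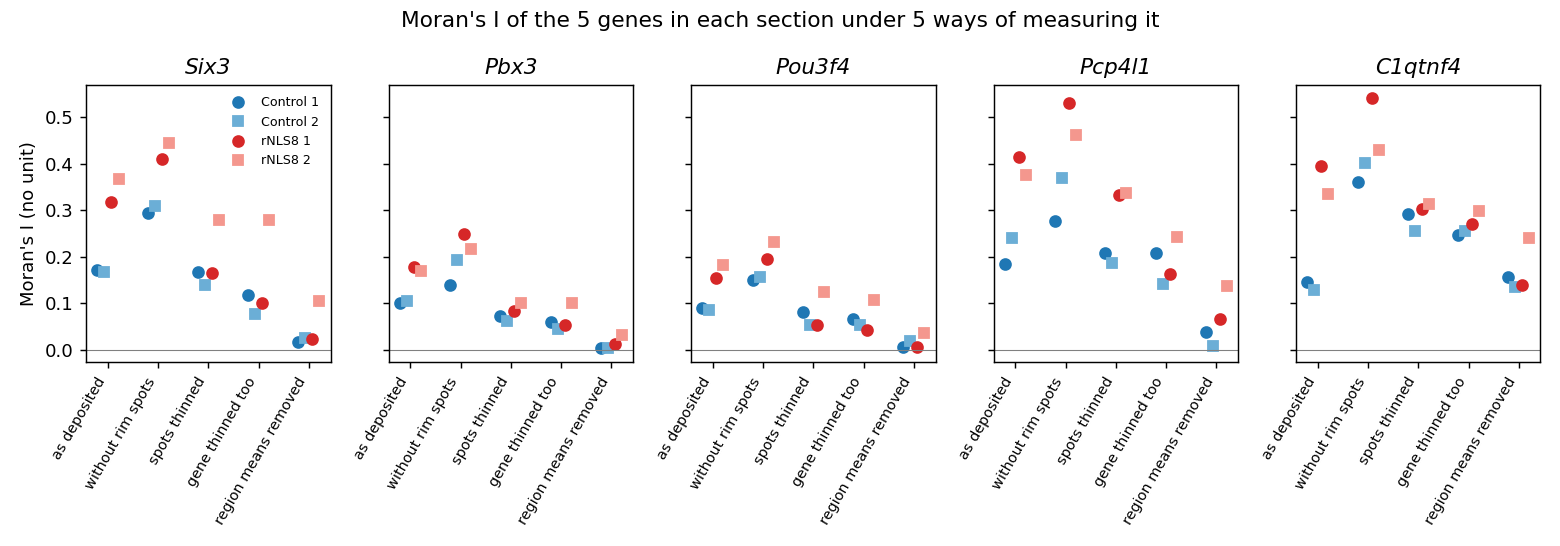
Moran's I (vertical axis, no unit) of each gene in each section, measured as deposited, without rim spots, with every spot thinned to 3000 UMI, with the gene also thinned to its lowest section mean, and with region means removed after thinning to 3000 UMI. Blue marks control and red marks rNLS8, and circles and squares mark replicates 1 and 2; for all 5 genes both red points are above both blue points in the first 2 columns, and not in the later ones for Six3 and Pou3f4.

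To match depth, each spot was thinned at random to 3000 UMI, which left out 36.0% and 29.2% of kept spots in control and 10.2% and 11.5% in rNLS8, most of them in the rim. C1qtnf4 then scored 0.292 and 0.255 in control and 0.303 and 0.313 in rNLS8. The control scores were above the deposited ones and the rNLS8 scores below, and the groups still did not overlap. Six3 scored 0.167 and 0.138 against 0.165 and 0.280, and rNLS8 replicate 1 fell among the controls. Pou3f4 scored 0.0813 and 0.0542 against 0.0537 and 0.125, where rNLS8 replicate 1 was the lowest of the 4 sections.

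Pcp4l1 stayed clearly apart at matched depth, with 0.208 and 0.186 in control against 0.333 and 0.337 in rNLS8. Pbx3 scored 0.0715 and 0.0625 against 0.0830 and 0.1002. Both rNLS8 scores were above both control scores for these 3 members (Pcp4l1, Pbx3 and C1qtnf4) and for 12.8% of the scored genes. By size, the Pcp4l1 difference of 0.138 ranked 2 among the scored genes, while Six3 ranked 10, C1qtnf4 43, Pbx3 77 and Pou3f4 100. The listed striatal genes went the other way at matched depth. Of 17 scored signalling genes, 0 had both rNLS8 scores above both control scores and 11 had both below. Of 6 scored lineage genes, 0 had both above and 2 had both below, beside 26.5% of all scored genes below. The median signalling score was 0.282 and 0.305 in control and 0.204 and 0.209 in rNLS8.

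Matching the mean count of each section as well as depth gave a Pcp4l1 difference of 0.0283, beside 0.138 at matched depth alone. A section's mean also depends on its mix of regions, so level within a region was not matched. With the counts of each gene thinned further, to the lowest mean UMI per spot of any section, Pcp4l1 scored 0.208 and 0.141 in control and 0.163 and 0.242 in rNLS8, and the groups overlapped. C1qtnf4 scored 0.246 and 0.255 against 0.270 and 0.298. It was the only member with both rNLS8 scores above both control scores, as 12.1% of the scored genes had. For Six3 and Pbx3, rNLS8 replicate 1 lay between the control scores, and for Pou3f4 below both, while rNLS8 replicate 2 was above both controls for all 3. Six3 scored 0.119 and 0.0777 in control, 0.101 in rNLS8 replicate 1 and 0.280 in rNLS8 replicate 2. The mean of Six3 was lowest in rNLS8 replicate 2, at 0.183 UMI per thinned spot, so its counts there were not thinned further. That mean was 0.295 and 0.305 in control and 0.338 in rNLS8 replicate 1.

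UMI summed over the spots of a region showed which tissue carries each gene. Six3 stood at 218 and 198 CPM in the striatum of control replicates 1 and 2 and at 227 and 232 CPM in rNLS8, against 23.9 and 22.3 CPM in the cortex of control and 24.5 and 13.996 CPM in that of rNLS8. Every striatal value was above every cortical value. Six3 rose in the striatum over the cortex by 3.21 ± 0.19 (SE, n = 2 sections) on the log2 scale in control (adjusted p = 7.5e-13, edgeR's quasi-likelihood test with Benjamini-Hochberg adjustment) and by 3.63 ± 0.19 in rNLS8 (adjusted p = 9.8e-14, edgeR). Leaving out a section moved the rNLS8 value between 3.23 and 4.07.

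Pbx3 stood at 130 and 139.9 CPM in the striatum of control and 149.5 and 139.8 CPM in that of rNLS8, against 28.8 and 27.7 CPM and 32.9 and 24.4 CPM in the cortex. It rose in the striatum by 2.30 ± 0.13 in control (adjusted p = 7.1e-13, edgeR) and 2.36 ± 0.13 in rNLS8 (adjusted p = 3.4e-13, edgeR). Pou3f4 stood at 150.3 and 108 CPM in the striatum of control and 119 and 175 CPM in that of rNLS8, against 45.2 and 28.5 CPM and 35.3 and 41.9 CPM in the cortex. It rose in the striatum by 1.87 ± 0.13 in control (adjusted p = 1.1e-11, edgeR) and 1.93 ± 0.12 in rNLS8 (adjusted p = 4.0e-12, edgeR). For each of the 3 transcription factors every striatal value was above every cortical value.

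Pcp4l1 stood at 341 and 444 CPM in the striatum of control and 821 and 659.9 CPM in that of rNLS8, against 87.0 and 102 CPM and 192 and 141 CPM in the cortex. It rose in the striatum by 2.09 ± 0.11 in control (adjusted p = 3.6e-14, edgeR) and 2.19 ± 0.10 in rNLS8 (adjusted p = 1.6e-14, edgeR). C1qtnf4 stood at 3317 and 2327 CPM in the striatum and 3317 and 2430 CPM in the cortex of control, and at 2743 and 2510 CPM and 2762 and 2286 CPM in rNLS8. The log2 difference of striatum over cortex was 0.012 ± 0.085 in control (adjusted p = 0.94, edgeR) and 0.095 ± 0.085 in rNLS8 (adjusted p = 0.49, edgeR), and its sign in control turned under 3 other settings and when control replicate 1 or rNLS8 replicate 2 was left out. Of all 12115 genes tested, 14.9% were called higher in the striatum in control and 10.7% in rNLS8, and 30.2% and 21.5% were called in either direction. The members were kept out of the clustering, but the regions rest on other genes of the same spots. They were also chosen for higher scores in the rNLS8 sections, and differences between regions can raise such a score. The rNLS8 calls between regions, here and below, are therefore not independent of that choice. With spots assigned by marker lists alone, the same 4 genes were called in both groups.

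**Figure D3:**
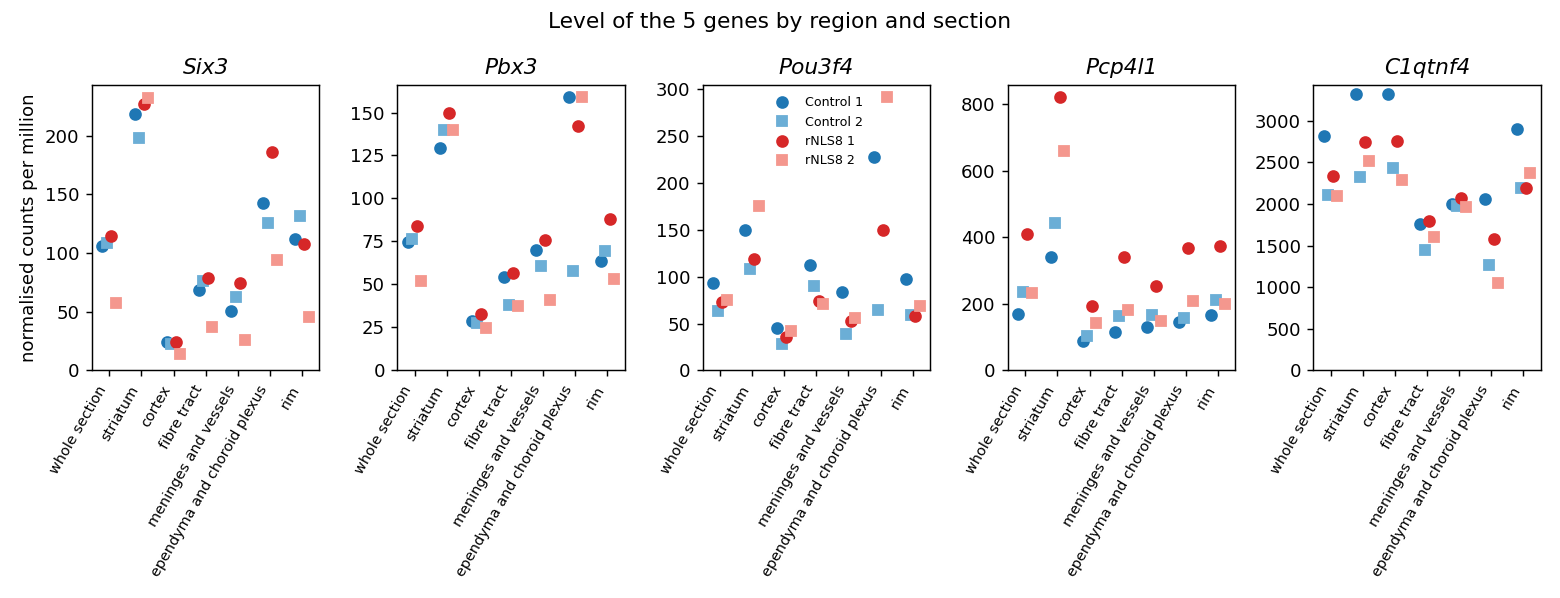
Level of each gene (normalised CPM, linear axis from 0, a separate scale for each gene) in the whole section and in 6 spot classes, 1 point per section, with blue for control and red for rNLS8. Of the classes shown, Six3, Pbx3, Pou3f4 and Pcp4l1 stand lowest in the cortex in each section, and the 2 striatal rNLS8 points of Pcp4l1 lie above all others of that gene.

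The remaining regions separated the 5 genes further. C1qtnf4 was lowest in the fibre tract among the 4 tested regions, with 1765 and 1442 CPM in control and 1797 and 1603 CPM in rNLS8. It fell there against the cortex by 0.79 ± 0.09 on the log2 scale in control (adjusted p = 2.0e-07, edgeR) and by 0.50 ± 0.09 in rNLS8 (adjusted p = 1.3e-04, edgeR), beside 14.3% and 7.43% of genes called lower. It also fell in the meninges and vessels, by 0.48 ± 0.09 in control (adjusted p = 1.7e-04, edgeR) and by 0.25 ± 0.09 in rNLS8 (adjusted p = 0.043, edgeR), beside 14.2% and 6.79% of genes.

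Six3 stood at 68.3 and 75.8 CPM in the fibre tract of control and 78.3 and 36.7 CPM in that of rNLS8. Six3, Pbx3, Pou3f4 and Pcp4l1 were called higher in the fibre tract than in the cortex in both groups, with log2 differences from 0.61 (Pcp4l1) to 1.70 (Six3) in control and from 0.69 (Pcp4l1) to 1.64 (Six3) in rNLS8 (adjusted p from 5.1e-07 to 0.026 in control and from 1.4e-05 to 0.0016 in rNLS8, edgeR). Of all genes, 9.42% were called higher there in control and 8.97% in rNLS8. Summed striatal markers were at 4501 and 6950 CPM in the fibre tract of control and 4046 and 2087 CPM in that of rNLS8, above the 1962, 2505, 2123 and 1327 CPM of the cortex of the same sections. Their part in these values was not tested.

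In the meninges and vessels Six3 stood above the cortex by 1.37 and 1.25 (log2, control and rNLS8), Pbx3 by 1.20 and 1.00 and Pou3f4 by 0.68 and 0.52, all called (adjusted p from 4.8e-05 to 0.019, edgeR). Pcp4l1 was called higher there in control, by 0.67 ± 0.14 (adjusted p = 7.2e-04, edgeR), but not in rNLS8, at 0.29 ± 0.11 (adjusted p = 0.081, edgeR). The difference between these contrasts comes from the comparison that chose the genes and is given as a value, -0.38 ± 0.18, where 0.157% of genes were called. Calls of higher genes made up 12.1% of all genes in control and 10.5% in rNLS8. Summed striatal markers stood at 3743 and 5588 CPM in this region of control and 3580 and 1838 CPM in that of rNLS8, and their part was not tested here either.

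Spots at the ventricle wall, with ependyma and choroid plexus, numbered 77 and 108 in control and 84 and 42 in rNLS8 and were not tested. Pou3f4 stood there at 228, 64.2, 150.3 and 292 CPM in the order control replicate 1, control replicate 2, rNLS8 replicate 1 and rNLS8 replicate 2. It was above its striatal level in 3 of the 4 sections, and the values spread widely within each group. Pbx3 stood there at 159, 57.6, 142 and 159 CPM in the same order, and Six3 at 143, 126, 186 and 94.2 CPM. Striatum was the highest region for Six3 and Pcp4l1 in each section, cortex or striatum for C1qtnf4, and cortex and claustrum were the lowest for Six3 and Pbx3 in both controls. Six3 stood at 25.9 and 28.9 CPM in the claustrum of control, close to its cortical values.

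Between the groups, Pcp4l1 had the largest difference in level of the 5 genes in whole sections and in each of the 4 tested regions. In the whole section it stood at 168 and 237 CPM in control and 409.95 and 231 CPM in rNLS8, so rNLS8 replicate 2 was below control replicate 2. Its log2 difference there was 0.66 ± 0.30, which went to 0.20 when rNLS8 replicate 1 was left out and to 1.01 when rNLS8 replicate 2 was. In the striatum the difference was 0.91 ± 0.19 and in the cortex 0.83 ± 0.20, and in both regions the 2 rNLS8 values were above the 2 control values, as they were for 35.8% and 41.7% of genes (37.9% in whole sections). It was 0.89 ± 0.27 in the fibre tract and 0.39 ± 0.24 in the meninges and vessels. These are descriptions, since they come from the comparison that chose the genes. Of 13444 genes, 0% passed the edgeR test in whole sections, where 2091 reached an unadjusted p below 0.05 and 518 were called by DESeq2. The shares called were 0.728% in the striatum, 0.00822% in the cortex, 0.699% in the fibre tract and 0.76% in the meninges and vessels.

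Within the striatum the other members had log2 level differences of 0.14 ± 0.15 for Six3, 0.10 ± 0.15 for Pbx3, 0.18 ± 0.23 for Pou3f4 and -0.10 ± 0.20 for C1qtnf4. Pou3f4 turned to -0.042 without control replicate 2 and to -0.12 without rNLS8 replicate 2, and C1qtnf4 to 0.16 without control replicate 1, while Pbx3 lay between 0.035 and 0.17 and Six3 between 0.078 and 0.20. In whole sections Six3 stood at 106 and 109 CPM in control and 114 and 57.4 CPM in rNLS8, a log2 difference of -0.33 ± 0.31. Leaving out rNLS8 replicate 1 gave -0.90, and leaving out rNLS8 replicate 2 gave 0.078. Pbx3 was at 74.5 and 76.5 CPM against 83.8 and 51.9 CPM, so the low value again was that of rNLS8 replicate 2. That section had the smallest share of striatum and the largest share of cortex. Pou3f4, also higher in striatum than in cortex, was not lowest there, with 93.1 and 63.6 CPM in control against 72.8 and 75.7 CPM. The part of the region mix in these values was not tested. In bulk sums such as these, fewer cells of a type and less RNA per cell cannot be told apart.

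Markers of other cells moved with the groups in the same spots. Summed microglial markers, of which 8 or 9 of 9 were counted in each sum, were at 283 and 365 CPM in the striatum of control and 508 and 609.9 CPM in that of rNLS8. The 6 astrocyte markers were at 521 and 578 CPM against 753 and 1199 CPM. The 16 striatal markers, of which 14 or 15 were counted, went the other way, from 12910 and 17056 CPM to 10674 and 8767 CPM. In the cortex the microglial markers were at 227 and 309 CPM in control and 605 and 968 CPM in rNLS8, and the astrocyte markers at 493 and 493 CPM against 891 and 1566 CPM. Markers of meninges and vessels, all 10 counted, were at 878, 501, 899 and 2302 CPM in the striatum, highest in rNLS8 replicate 2. Their part in the levels of the members was not tested.

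A comparison of single spots did not depend on the proportion of striatal to cortical spots. The parts of each named region that a section holds could still differ. After thinning to 3000 UMI, the share of pairs of 1 striatal and 1 cortical spot in which the striatal spot held more Pcp4l1, with ties split evenly, was 0.724 and 0.758 in control and 0.836 and 0.808 in rNLS8. For Six3 the shares were 0.696 and 0.684 against 0.710 and 0.704, and for Pbx3 0.610 and 0.615 against 0.633 and 0.620. Both rNLS8 shares were above both control shares for these 3 genes and for 19.9% of the scored genes. The groups overlapped for Pou3f4, with 0.619 and 0.586 against 0.597 and 0.635, and for C1qtnf4, with 0.564 and 0.498 against 0.520 and 0.574.

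With striatum and cortex given equal weight, the share of the variance of log counts that lay between them was 19.9% and 23.9% in control and 35.6% and 30.9% in rNLS8 for Pcp4l1. For Six3 it was 19.1% and 17.6% against 21.0% and 20.9%. Both rNLS8 shares were above both control shares for Six3, Pcp4l1 and Pbx3 and for 13.1% of the scored genes. The separation of the Six3 scores, 0.172 as deposited, thus came with a difference of 2.55 percentage points here, and that of Pcp4l1 with 11.4. These shares and the pair shares above were matched for depth but not for level. Thinned spots held on average 0.455 and 0.663 Pcp4l1 UMI in control and 1.22 and 0.763 in rNLS8. The share of thinned striatal spots with a Pcp4l1 UMI was 57.4% and 67.9% in control and 89.7% and 82.3% in rNLS8, and of cortical spots 18.4% and 23.3% against 42.1% and 34.2%. Before thinning, the striatal shares were 82.9%, 91.4%, 99.4% and 89.8% in the same order.

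The ratio of striatum to cortex was also compared between the groups from summed counts. The log2 difference of the ratio, rNLS8 over control, was 0.098 ± 0.14 for Pcp4l1, 0.063 ± 0.19 for Pbx3, 0.063 ± 0.18 for Pou3f4 and 0.083 ± 0.12 for C1qtnf4. For Six3 it was 0.41 ± 0.28, but 0.056 when rNLS8 replicate 2 was left out and 0.86 when rNLS8 replicate 1 was. Pbx3 turned to -0.012 without control replicate 1 and to -0.058 without rNLS8 replicate 2, and Pou3f4 to -0.034 and -0.059. Pcp4l1 lay between 0.025 and 0.18 over the sections left out. Of all genes, 0.603% (73) were called for this difference, but 0 without control replicate 2, 5 without control replicate 1 and 321 without rNLS8 replicate 1. For Pcp4l1 the level differences of striatum and cortex, 0.91 and 0.83, were thus within 1 SE of each other.

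**Figure D4:**
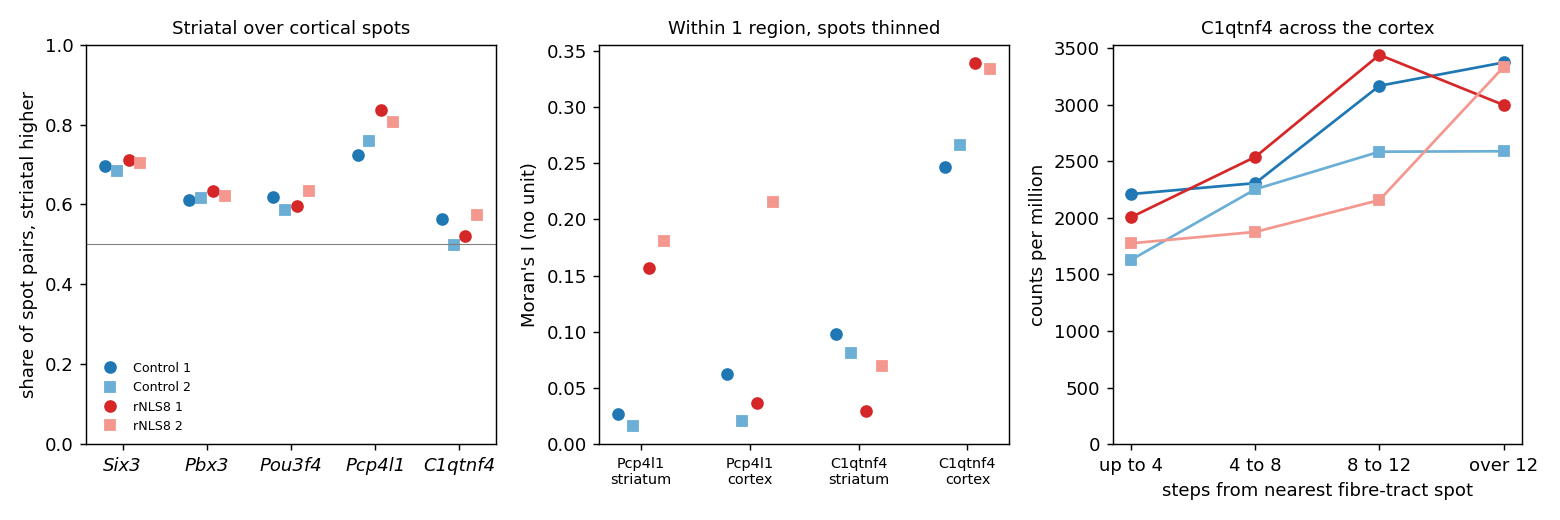
Left, share of striatal and cortical spot pairs in which the striatal spot held more UMI, by gene and section. Middle, Moran's I of Pcp4l1 and C1qtnf4 within the striatum and within the cortex. Right, C1qtnf4 (CPM) in cortical spots, cluster 13 left out, by distance from the nearest fibre-tract spot. Left and middle use spots thinned to 3000 UMI. Pcp4l1 within the striatum and C1qtnf4 within the cortex have both red points above both blue points.

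Scores within a single region were compared at matched depth, but not at matched level. Pcp4l1 within the striatum scored 0.0266 and 0.0160 in control and 0.157 and 0.181 in rNLS8, so that both control scores were near 0. By cluster, Pcp4l1 stood at 969 and 672 CPM of the cluster's own total, not rescaled, in clusters 12 and 18 of rNLS8 replicate 1 and at 772 and 393 CPM in clusters 24 and 26 of rNLS8 replicate 2. In control replicate 1 it stood at 299.99, 309 and 383 CPM in clusters 11, 6 and 23, and at 199 CPM in the 26 spots of cluster 12. In control replicate 2 it stood at 441, 394 and 256 CPM in clusters 6, 23 and 26. Both rNLS8 scores within the striatum were above both control scores for Pcp4l1 and Pbx3, and for 14.7% of the scored genes.

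C1qtnf4 within the cortex scored 0.246 and 0.266 in control and 0.339 and 0.334 in rNLS8. Six3 and Pbx3 also had both rNLS8 scores above both control scores there, as did 16.6% of the scored genes. Across the cortex, apart from cluster 13, C1qtnf4 was followed by distance from the nearest fibre-tract spot, in steps of 1 spot spacing. These CPM are of each band's own total, not rescaled, and so differ in scale from the regional values above. In control replicate 1 C1qtnf4 stood at 2209 CPM in spots up to 4 steps away, 2306 at 4 to 8 steps, 3165 at 8 to 12 and 3371 beyond 12. The series was 1629, 2252, 2583 and 2587 CPM in control replicate 2, 2006, 2538, 3438 and 2996 in rNLS8 replicate 1 and 1774, 1875, 2156 and 3331 in rNLS8 replicate 2. The band nearest the tract was the lowest in each section, and the last band rests on 18 spots in control replicate 2 and 31 in rNLS8 replicate 1. Cluster 13 was left out of these bands but is part of the within-cortex scores. In it C1qtnf4 stood at 3630, 3144, 3280 and 2960 CPM, in the order controls 1 and 2 and rNLS8 1 and 2. The largest cortical clusters of these sections, 2, 4, 7 and 5, held 2661, 2169, 2775 and 1822 CPM. Six3 stood at 32.7, 41.4, 39.1 and 57.0 CPM in cluster 13 and 18.0, 18.0, 19.5 and 8.83 CPM in those clusters. The part of cluster 13 in the scores was not tested. Within the striatum C1qtnf4 scored 0.0977 and 0.0814 in control and 0.0298 and 0.0694 in rNLS8, with both rNLS8 scores below both control scores, as in 18.9% of the scored genes.

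With all region means removed, the thinned scores were low for the 3 transcription factors. Six3 scored 0.0162 and 0.0244 in control, 0.0242 in rNLS8 replicate 1 and 0.104 in rNLS8 replicate 2. Pcp4l1 scored 0.0392 and 0.00815 against 0.0653 and 0.138, and C1qtnf4 0.155 and 0.136 against 0.140 and 0.240. Both rNLS8 scores were above both control scores for Pcp4l1 and Pbx3 among the members and for 17.3% of the scored genes. For Six3 and C1qtnf4 the higher score thus lay in rNLS8 replicate 2 alone.

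Other genes of the striatal lineage gave the setting. Of 23 striatal lineage and transcription factor genes, 21 were tested, and 15 were called higher in the striatum than in the cortex in control and 13 in rNLS8, none lower, with median log2 differences of 1.73 and 1.37 beside 0.038 and 0.014 over all genes. The retinoic acid receptor Rarb rose by 3.58 ± 0.31 (adjusted p = 1.0e-09, edgeR), Isl1, a LIM-homeobox factor, by 3.50 ± 0.53 (adjusted p = 9.0e-06, edgeR) and the retinoid X receptor Rxrg by 3.06 ± 0.12 (adjusted p = 8.8e-16, edgeR) in control. The Six3 difference in control, 3.21, lay between those of Isl1 and Rxrg. All 22 tested striatal signalling genes of a list of 24 were called higher in both groups, led in control by the phosphatase gene Ptpn7 (3.55), the orphan receptor Gpr6 (3.47) and the dopamine receptor Drd2 (3.40). Many of them, Drd2 included, also served to name the striatum, so their count is not independent of the regions.

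Shares of striatal over cortical pairs at matched depth were also taken for the signalling genes. Of the 17 signalling genes scored, 11 had both rNLS8 shares of striatal over cortical pairs below both control shares and none had both above, beside 24.2% and 19.9% of the scored genes. Their median share was 0.789 and 0.840 in control and 0.724 and 0.727 in rNLS8. Penk, the enkephalin precursor of indirect-pathway neurons, had shares of 0.789 and 0.847 against 0.724 and 0.727. It was picked after its values were seen and is itself a marker used to name the striatum. Six3 and Pcp4l1 had the higher shares in rNLS8 given above, but they were chosen for higher rNLS8 scores. In the striatum the median log2 level difference of the 22 signalling genes was -0.70, with 1 of them called (Ptpn7, lower), beside 0.019 over all genes and 0.439% of genes called lower.

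Close relatives of the members were counted in the same way. Of 20 relatives, 15 were tested in the region fit, and 4 were called higher and 2 lower in control striatum than in cortex, beside 14.9% and 15.3% of all genes. Pcp4 is the calmodulin regulator that resembles Pcp4l1. It stood at 1168 and 1482 CPM in the striatum of control and 707 and 433 CPM in that of rNLS8. The share of genes with both striatal rNLS8 levels below both control levels was not taken. The log2 level difference of Pcp4, -1.22, was opposite in sign to that of Pcp4l1 but was not called (adjusted p = 0.076, edgeR). The striatal over cortical difference of Pcp4 was 1.11 ± 0.09 in control (adjusted p = 8.2e-10, edgeR). C1qtnf12 rose by 0.96 ± 0.12 (adjusted p = 9.3e-07, edgeR) and the POU factor Pou3f1 by 0.62 ± 0.11 (adjusted p = 8.4e-05, edgeR), while Pou3f2, another POU factor, fell by 0.85 ± 0.14 (adjusted p = 2.8e-05, edgeR) and C1qtnf1 fell by 1.14 ± 0.22 (adjusted p = 2.7e-04, edgeR).

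The genes with the most similar maps were taken by the mean over the 4 sections of the correlation of neighbour-averaged log counts over spots, which share depth and neighbours. For Six3 these included Adcy5 (r = 0.673) and Pde1b (0.672), and for Pcp4l1 Ppp1r1b (0.759) and Pde10a (0.720). For Pbx3 they included Rgs9 (0.585) and Penk (0.571), and for Pou3f4 they were Penk (0.542), Ppp1r1b (0.534) and Rgs9 (0.533). All of these 6 genes are signalling genes of striatal projection neurons, such as the phosphatase inhibitor Ppp1r1b and the phosphodiesterases Pde1b and Pde10a.

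C1qtnf4 stood alone among the members. Its closest maps were those of the semaphorin receptor Plxnd1 (0.462), the plasma membrane calcium pump Atp2b2 (0.431) and the kinase inhibitor Camk2n1 (0.424). Its correlation with the other members was 0.0870 to 0.230, while those 4 had 0.462 to 0.595 with each other, with Six3 and Pcp4l1 the most alike pair. In the section order used above, the Six3 and Pcp4l1 pair had 0.457, 0.512, 0.667 and 0.745. The pairs of these 4 genes were higher in both rNLS8 sections. So were their nearest genes named above, such as Six3 with Adcy5 (0.579, 0.597, 0.743 and 0.775). The 4 genes were chosen for higher scores in those sections, and the correlations were not matched for depth. The share of all gene pairs that were higher there was not taken, so these values are described only.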

How the data were processed

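Visium UMI were counted in 2 control and 2 rNLS8 sections with Space Ranger 2.1.0, per the file headers, on mm10, per the submitters' processing notes; no source used here names the probe set. The authors deposited raw counts for each gene in each spot, and a deposited score per gene and section, Moran's I. The members and lists were chosen with earlier results of these data known. Spots of at least 500 UMI were kept, summed with their grid neighbours and clustered without the members (scanpy 1.11.5, leidenalg 0.10.2, 2000 variable genes, 30 components, 15 neighbours, resolution 1, each section centred). Clusters were named from marker lists (lead of at least 0.1 log2, 3 detected markers); a rim has a median UMI under 0.5 of its section's. Regions with at least 50 spots in every section were summed. These sums were fitted with edgeR 4.0.16 in R 4.3.3 (TMM, default filter, section as block, threshold 0.05) after a test on simulated counts. CPM of single genes by region or whole section use a separate TMM scaling. Marker, Y-linked, cluster and distance CPM, and shares of genes with both CPM above, were scaled to totals only. Depth was matched by 5 draws of 3000 UMI per spot, on log(count + 1). Genes named were the members, the 3 nearest maps of each (1 gene among them is not reported here) and, per list, the 3 largest called differences each way; Penk at matched depth was chosen after its values were seen. Alternatives were DESeq2 1.42.0, its size factors, no filter, 1000 UMI, marker lists alone, a replicate block and leaving out sections. RefSeq (GRCm38.p6) gave positions and promoters.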

Additional observations from a re-analysis of the deposited data

How the results depend on the processing

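With 2 sections per group, 1 section can set a difference between groups. In both groups the striatal over cortical calls of Six3, Pbx3, Pou3f4 and Pcp4l1 were kept under every alternative run. For C1qtnf4, never called, the sign in control turned under no filter (-0.020), striatum and cortex sums only (-0.025) and spots of at least 1000 UMI (-0.010), and leaving out sections gave -0.037 to 0.043. The Pcp4l1 change of ratio was 0.23 with marker lists alone. The cause of these shifts was not tested.

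Over whole sections, the rNLS8 minus control difference in Moran's I stayed above 0 for the 5 genes under each setting given here. Without the rim it was 0.126 for Six3, 0.104 for C1qtnf4 and 0.0608 for Pou3f4. With spots thinned to 3000 UMI it was 0.0692 for Six3, 0.138 for Pcp4l1, 0.0246 for Pbx3, 0.0342 for C1qtnf4 and 0.0214 for Pou3f4. With the gene thinned to its lowest mean it was 0.0921, 0.0283, 0.0238, 0.0329 and 0.0154 in the same order, and with region means removed 0.0439, 0.0779, 0.0193, 0.0443 and 0.00907.

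Leaving out sections gave whole-section level differences of -0.90 to 0.078 for Six3, -0.54 to 0.14 for Pbx3, -0.36 to 0.075 for C1qtnf4 and -0.34 to 0.22 for Pou3f4. In the cortex it gave -0.69 to 0.097 for Six3 and -0.19 to 0.23 for Pbx3, and for the Six3 change of ratio 0.056 to 0.86.

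The replicate numbers carry the labelled sex, which 1 library goes against, and no source ties them to a litter or batch; same-numbered deviations had r = -0.067 across genes, so they were not taken as pairs. With the replicate block, the Pcp4l1 whole-section difference was 0.63 and its striatal difference 0.92, and genes called for level went from 0 to 61 in whole sections, 88 to 520 in the striatum, 1 to 413 in the cortex, 70 to 177 in the fibre tract and 76 to 142 in the meninges and vessels. DESeq2 called 518 genes in whole sections, 381 in the striatum and 721 in the cortex, and no filter 245, 842 and 351. Leaving out control replicate 2 gave 1858, 1025 and 4095. DESeq2 size factors gave 166 in the cortex. For the change of ratio, 73 genes became 236 with no filter, 37 with DESeq2, 30 with marker lists alone, 10 with striatum and cortex sums only, 5 without control replicate 1, 0 without control replicate 2 and 321 without rNLS8 replicate 1.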
